A study of Mus musculus with 6 samples.

Results

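Acta2, Actg2, Tagln and Mylk, genes of the smooth muscle contractile apparatus, were followed in TM4 cells, a mouse Sertoli cell line (Sertoli cells are the supporting cells of the seminiferous tubule). The 4 genes were taken by symbol from the authors' deposited table of probes they had called changed, where they carry 7 of 2402 usable named probes, and 4 of 2004 named genes, on an array of 45269 probes. In one group of 3 samples the cells carried a mixture of 4 small interfering RNAs (siRNAs) against Gata4, a zinc finger transcription factor of gonads and heart (Gata4 siRNA). In the other group of 3 samples they carried 1 non-targeting siRNA (NT siRNA). All 6 samples share the same cell line, the transfection reagent and a final siRNA concentration of 0.1 µM, so the comparison covers 1 line in culture and no testis tissue. Passage number is given as 12 with the samples and as 13 with the transfection. Each sample was hybridized to its own Illumina MouseWG-6 version 2.0 array. The genes were thus chosen by the authors' calls of a change on this same contrast, and their differences between the groups are therefore given as descriptions. Calls and p-values of these genes appear below only to describe the fits. They are not a valid test of the change, since the genes were chosen on it.

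Smooth muscle cells contract when a calcium-activated kinase phosphorylates the regulatory light chain of myosin, which then pulls on actin filaments. Mylk encodes that kinase, Acta2 and Actg2 encode the alpha (vascular) and gamma (enteric) smooth muscle actins, and Tagln encodes transgelin, an actin-binding protein of the filament bundles. Many smooth muscle genes are switched on together by serum response factor (SRF), which binds a DNA element called the CArG box with cofactors of the myocardin family. In the testis these proteins are typical of the peritubular myoid cells that surround the tubule, and Acta2 is also widely used as a mark of myofibroblasts and of cultured cells with stress fibres.

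The siRNAs are shown first because they are the only thing that the labels change between the groups. They are printed as the labels list them, 5′ to 3′.
Gata4 siRNA 1: agagaauagcuucgaacca
Gata4 siRNA 2: ggauauggguguuccgggu
Gata4 siRNA 3: cugaauaaaucuaagacgc
Gata4 siRNA 4: ggacauaaucaccgcguaa
NT siRNA: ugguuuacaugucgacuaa

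A RefSeq window from 250 bases before to 50 bases after an annotated start was matched for 2 of the 4 genes, Acta2 and Mylk (build GRCm38.p6). These windows are shown because the CArG box is the element that textbooks assign to smooth muscle genes. Capitals mark CArG boxes with up to 1 mismatch in the 6 central bases, and, on either strand, the MCAT element CATTCC, the binding site of TEAD factors. The Acta2 window is chr19:34255324-34255623 on the minus strand, and the Mylk window is chr16:34784700-34784999 on the plus strand.
Acta2: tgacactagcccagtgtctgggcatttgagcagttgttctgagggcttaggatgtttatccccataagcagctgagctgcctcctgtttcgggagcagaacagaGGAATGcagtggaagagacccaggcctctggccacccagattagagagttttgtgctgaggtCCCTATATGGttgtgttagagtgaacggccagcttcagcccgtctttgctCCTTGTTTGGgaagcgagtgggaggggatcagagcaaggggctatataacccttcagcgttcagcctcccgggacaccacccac
Mylk: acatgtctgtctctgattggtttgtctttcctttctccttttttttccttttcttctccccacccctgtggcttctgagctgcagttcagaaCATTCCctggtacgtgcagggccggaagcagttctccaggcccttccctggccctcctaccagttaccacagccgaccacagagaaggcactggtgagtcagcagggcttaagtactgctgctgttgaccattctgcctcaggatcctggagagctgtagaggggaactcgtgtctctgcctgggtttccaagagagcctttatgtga

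The Acta2 window held 2 CArG boxes with 1 mismatch each, starting at -84 and -34 from the annotated start, and 0 exact ones. The first of these reads CCCTATATGG and the second CCTTGTTTGG. Of 32851 RefSeq windows of 300 bases, 9.98% hold such a box with up to 1 mismatch and 1.63% hold an exact one. In the Mylk window these letters were not found. Each window held 1 MCAT element, at -146 in Acta2 and at -158 in Mylk, and 14.7% of all windows hold one. The letters GATA occurred on the opposite strand 1 time in the Acta2 window, at -194, and 0 times in the Mylk window, against 57.9% of all windows with a match on either strand. The E-box CANNTG occurred 3 times in Acta2 and 0 times in Mylk, against 72.3% of all windows. None of the matches in these windows overlap each other. A match describes the letters only, and binding was not measured.

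**Figure D1:**
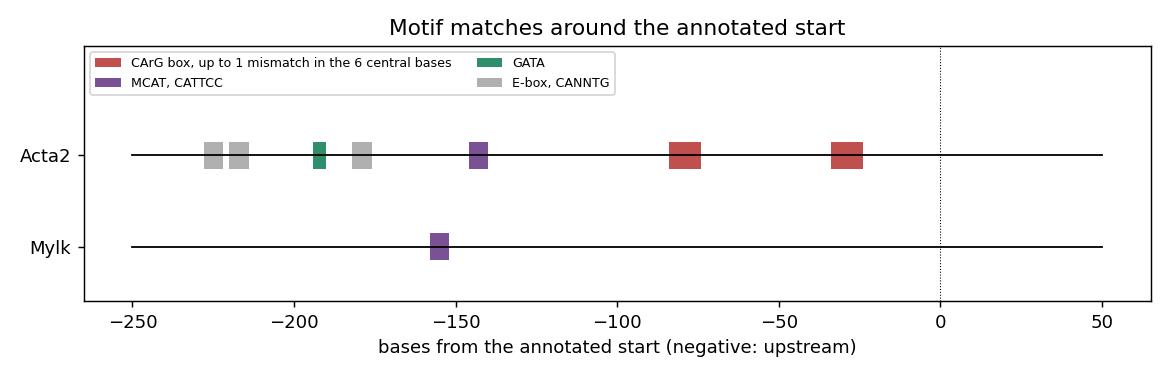
Positions of motif matches in the RefSeq windows of Acta2 (upper line) and Mylk (lower line), in bases from the annotated start, with each coloured block drawn to the length of the match. The Acta2 window carries 2 CArG boxes with 1 mismatch nearest its start and an MCAT element further upstream, and the Mylk window carries the MCAT element alone among the motifs searched.

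The deposited intensities are on a linear scale, with background already subtracted. On each array 17705 to 17737 probes exceeded a noise floor of 17.1 intensity units, and Pearson's r across the 17740 probes tested was at least 0.9872 between arrays of 1 group. The median intensity was 6.7 to 6.8 on every array, and whether values were normalized between arrays before deposit was not tested. The near-equal counts are therefore not a measure of array quality. All 7 probes of the 4 genes lay above the noise floor on all 6 arrays. Nothing in the labels says that samples of a group were separate cultures, so the spread between them may be technical. No probe is named Gata4 here, so the targeted gene does not check the labels. In RNA from a whole culture, a change in the number of cells with a transcript and a change in transcript per cell cannot be told apart.

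Smooth muscle alpha-actin, Acta2, had intensities of 18030.5, 16795.3 and 15845.6 in Gata4 siRNA cells and of 11858.5, 12104.6 and 11095.1 in NT siRNA cells on its brightest probe (ILMN_2693895). The groups did not overlap, and the lowest Gata4 siRNA array was 1.31-fold above the highest NT siRNA array. The means were 16890.5 ± 1096 in Gata4 siRNA cells and 11686 ± 526 in NT siRNA cells (SD, n = 3 each), a ratio of 1.45. On the log2 scale used for the fits, log2 of the background-adjusted intensity plus 16, Acta2 was higher by 0.53 ± 0.12 (log2 difference ± SE).

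A further 3 probes are named Acta2, and all of them were brighter on every Gata4 siRNA array than on any NT siRNA array. Probe ILMN_2710354 had 2924, 2371.4 and 2453.6 in Gata4 siRNA cells against 1703.3, 2016.9 and 1634.2 in NT siRNA cells, a log2 difference of 0.53 ± 0.14. Probe ILMN_2710353 had 2178.6, 1933.6 and 1806.6 in Gata4 siRNA cells against 1369.8, 1512.2 and 1437.8 in NT siRNA cells, a log2 difference of 0.45 ± 0.12. Probe ILMN_2923445 had 2704.2, 2722 and 2717.3 in Gata4 siRNA cells against 2216, 2329.2 and 1918 in NT siRNA cells, with the smallest difference of the 4 probes, 0.34 ± 0.12. The probes thus ran the same way with log2 differences from 0.34 to 0.53, and their SEs overlap. The mean over the 4 probes was higher by 0.46 ± 0.12. The probe sequences were not used here, so whether a probe also reads a related actin transcript was not tested.

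Smooth muscle gamma-actin, Actg2, which differs from the alpha form in few residues and is typical of gut and other visceral muscle, had 2638.9, 2514.3 and 2510.1 in Gata4 siRNA cells and 1560.2, 1694.2 and 1362.1 in NT siRNA cells. The 3 Gata4 siRNA arrays lay close together, and each was at least 1.48-fold above every NT siRNA array. The means were 2554 ± 73.2 in Gata4 siRNA cells and 1539 ± 167 in NT siRNA cells (SD, n = 3 each), a ratio of 1.66. Actg2 was higher by 0.73 ± 0.12 on the log2 scale.

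Transgelin, Tagln, gave the largest difference of the 4 genes on this scale. Its intensities were 127.1, 159.4 and 184.4 in Gata4 siRNA cells, against 71.8, 77.3 and 73.2 in NT siRNA cells. The 3 NT siRNA arrays were nearly equal, whereas the Gata4 siRNA arrays were spread, and the groups did not overlap. The means were 157 ± 28.7 in Gata4 siRNA cells and 74.1 ± 2.86 in NT siRNA cells (SD, n = 3 each), a ratio of 2.12. The log2 difference was 0.93 ± 0.15. This size depends on how background is handled: with 130 added to each intensity before the log, the difference was 0.49 ± 0.09. In that setting it was the smallest of the 4 genes, below Actg2 (0.69), Mylk (0.54) and Acta2 (0.53).

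Myosin light chain kinase, Mylk, had 522, 413.2 and 372 in Gata4 siRNA cells and 255.7, 289.3 and 226.3 in NT siRNA cells. Both groups were spread widely, and the lowest Gata4 siRNA array stood 1.29-fold above the highest NT siRNA array. The means were 436 ± 77.5 in Gata4 siRNA cells and 257 ± 31.5 in NT siRNA cells (SD, n = 3 each), a ratio of 1.69, and the log2 difference was 0.72 ± 0.16. Mylk gives rise to long and short forms of the kinase and to telokin, a small product of the end of the gene, and which of these its single probe reads is not known here.

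**Figure D2:**
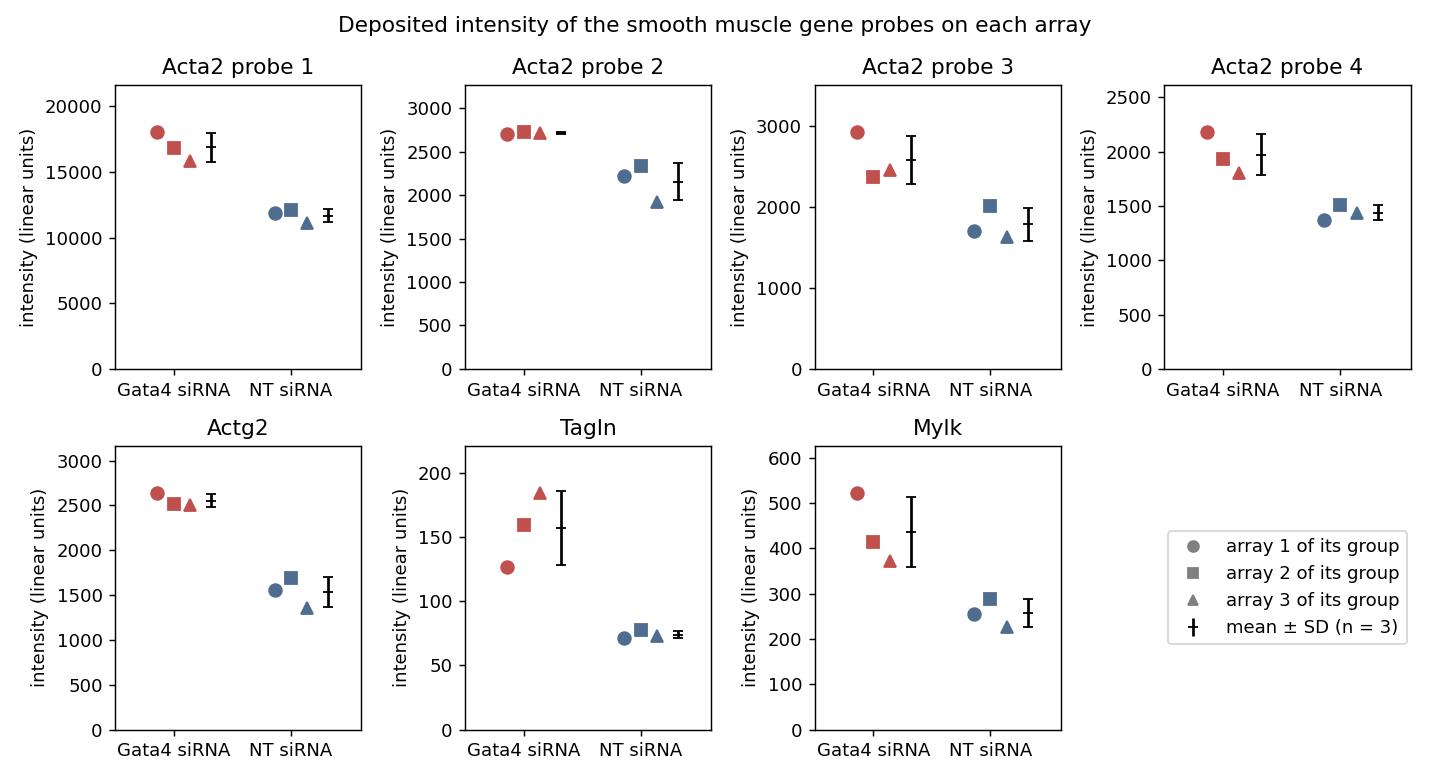
Deposited intensity on a linear axis from 0 for the 4 Acta2 probes (numbered from brightest to dimmest), Actg2, Tagln and Mylk, with Gata4 siRNA arrays left of NT siRNA arrays, 1 symbol per array and bars for mean ± SD (n = 3). In all 7 panels every Gata4 siRNA array lies above every NT siRNA array, and Tagln on Gata4 siRNA array 1 is the lowest of its group while Acta2 probe 1, Actg2 and Mylk are highest there.

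The 4 genes did not vary alike within a group. On Gata4 siRNA array 1, Mylk lay above its group mean by 0.27, Acta2 by 0.10 and Actg2 by 0.05 (log2), while Tagln was at -0.26. On Gata4 siRNA array 3 the signs were turned, with Tagln at 0.23, Mylk at -0.21, Acta2 at -0.09 and Actg2 at -0.02. Among the controls, NT siRNA array 2 was the highest and NT siRNA array 3 the lowest for Acta2, Actg2 and Mylk. Tagln stayed within 0.05 of its mean on all 3 NT siRNA arrays. The mean of the 4 genes, set to the NT siRNA mean, was 0.76, 0.71 and 0.70 on the Gata4 siRNA arrays and 0.00, 0.10 and -0.11 on the NT siRNA arrays. From this mean profile the root-mean-square distance over the 6 arrays was 0.22 for Tagln, 0.15 for Acta2 and 0.13 for Mylk, while Actg2 lay nearest at 0.03. This distance counts the difference between the groups as well as the variation within them, and the mean includes the gene itself.

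Against all probes, the 4 genes had a median log2 difference of 0.72, where the 17740 probes tested had a median of 0.01 and the 1991 named genes tested a median of 0.27. Of all probes tested, 0.806% rose more than Tagln, 2.04% more than Actg2, 2.17% more than Mylk and 5.88% more than Acta2. With limma and an adjusted p under 0.05 over all probes, 4 of the 4 genes and 4 of their 7 probes were called higher, against 4.07% of all probes tested and 25.9% of the 1991 named genes tested. The 3 probes that missed the threshold are the further Acta2 probes. The groups were separated upward for 7 of 7 probes, against 17.0% of all probes tested. Since the calls of the authors on the same arrays chose the genes, neither share supports the direction.

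Several of these calls were lost when 1 array was left out, in fits that also rest on fewer arrays. For Acta2, the log2 difference stayed at 0.53 without Gata4 siRNA array 2, while its SE went from 0.12 to 0.15. Without Gata4 siRNA array 2, limma called 0 of the 4 genes, although 4 had an unadjusted p under 0.05, and calls over all probes numbered 257, against 1558 (8.78% of those tested) with all arrays. Tagln alone was called without Gata4 siRNA array 1 and without NT siRNA array 1, and Actg2 and Tagln without NT siRNA array 2. Acta2 was not called without Gata4 siRNA array 3, and Mylk was not called without NT siRNA array 3. The sizes moved less: over the 6 fits that each leave out 1 array, the log2 difference ran from 0.48 to 0.57 for Acta2, from 0.65 to 0.80 for Actg2, from 0.82 to 1.06 for Tagln and from 0.59 to 0.82 for Mylk.

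**Figure D3:**
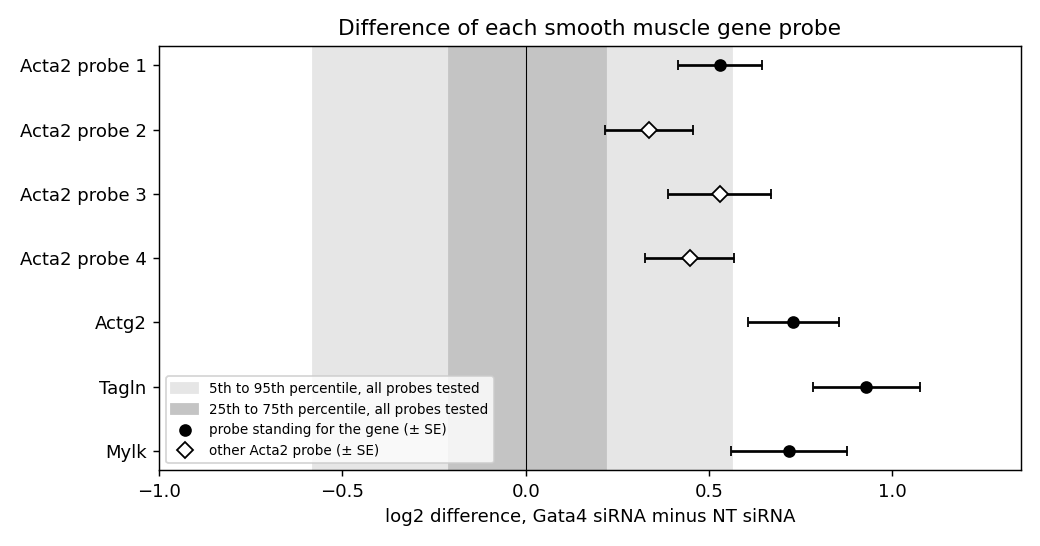
Log2 difference, Gata4 siRNA minus NT siRNA, of the 7 probes with SE (3 arrays per group), where filled circles stand for the gene and open diamonds are further Acta2 probes. Grey bands give the 5th to 95th percentile (-0.58 to 0.56) and the 25th to 75th percentile (-0.21 to 0.22) of the 17740 probes tested, and Actg2, Tagln and Mylk lie beyond the wider band.

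**Figure D4:**
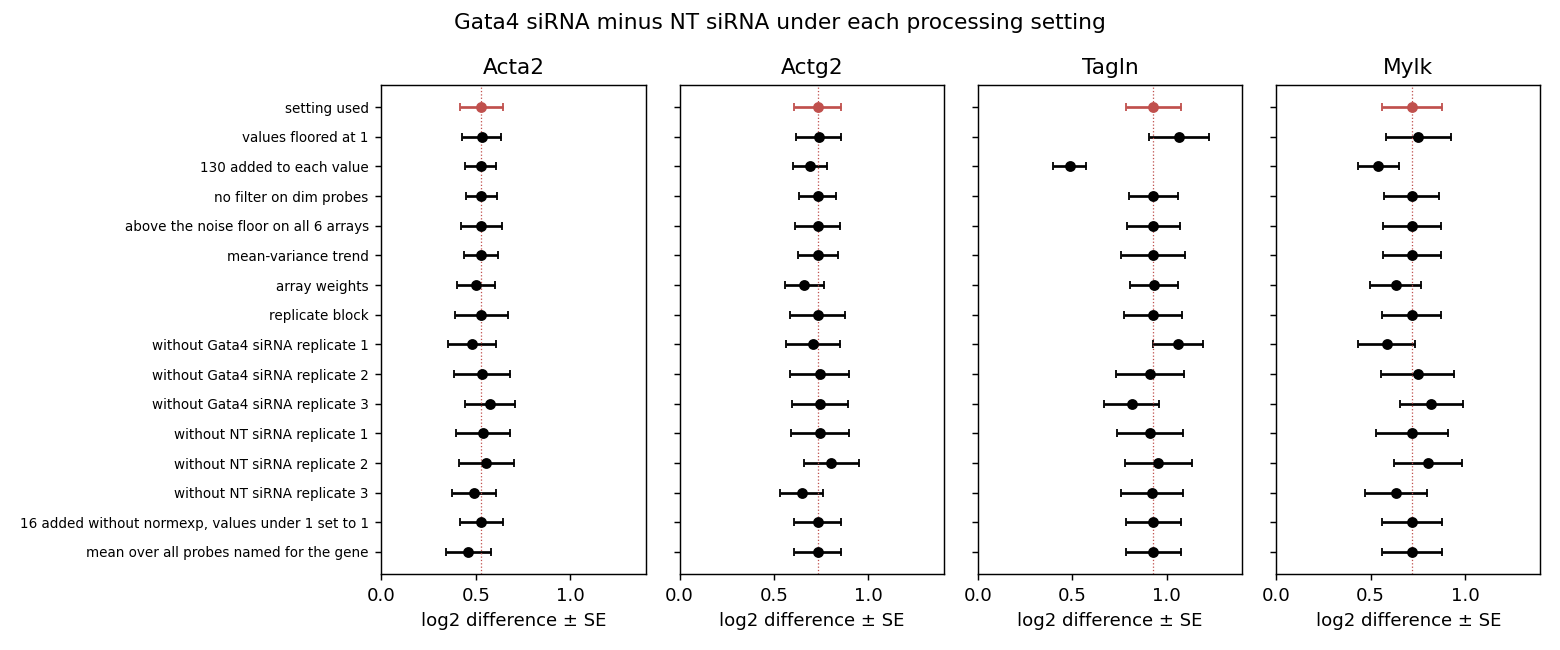
Log2 difference ± SE of Acta2, Actg2, Tagln and Mylk, Gata4 siRNA minus NT siRNA, under the setting used (top row, red, with a dotted line) and under each other setting. All points are above 0, which follows from groups that do not overlap and is no check of the direction. The point that departs most is Tagln with 130 added to each value, at 0.49.

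Other genes of the contractile programme are named only where the authors had called them, so the counts that follow are shares of named members. They are to be read against the 1991 named genes tested, of which 25.9% were called higher and 29.5% lower, rather than against all probes tested, of which 4.07% were called higher and 4.71% lower. Of 35 other smooth muscle and myoid markers 3 were named, of which 0 rose and 1 fell, while 2 did not pass. Their median log2 difference was -0.44. The one that fell was Cav1, the scaffold of caveolae, with 5778.4, 4898.1 and 5468.7 in Gata4 siRNA cells against 9005.6, 8394 and 7518.9 in NT siRNA cells (-0.62 ± 0.13). The groups of Cav1 did not overlap, and it kept its call in 1 of the 6 fits that leave out an array. Myl9, the smooth muscle regulatory light chain that the kinase phosphorylates, and Csrp2, a LIM protein of smooth muscle, were singled out after their values were seen. Myl9 was at 0.33 ± 0.12 and a second probe of it at 0.48 ± 0.13, and Csrp2 was at -0.44 ± 0.15, none of which passed. The markers that define differentiated smooth muscle in the list, such as Myh11, Cnn1, Smtn and Des, are not among the named genes.

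Among actins, actin assembly and actin-binding genes 5 of 50 were named, and 1 rose, 1 fell and 3 did not pass (median 0.48), or 1 of 5 each way against 25.9% and 29.5% of all named genes. Daam1, a formin that builds unbranched actin filaments, had 202.4, 223.4 and 207 in Gata4 siRNA cells against 119.3, 118.1 and 136.1 in NT siRNA cells and rose by 0.69 ± 0.12. Marcks, a membrane-bound actin cross-linker, fell by 0.64 ± 0.12. Each of these kept its call in 3 of the 6 fits that leave out an array. The 3 that did not pass, named after their values were seen, were Capg (0.49 ± 0.14), Msn (0.48 ± 0.14) and Actn1 (0.33 ± 0.11). In all, 4 of the 5 had a positive difference and 1 a negative one.

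Of 40 regulators of smooth muscle gene transcription 7 were named, and 1 rose, 3 fell and 3 did not pass (median -0.58), where 29.5% of all named genes were called lower. Klf4, a zinc finger factor known to repress smooth muscle genes in vascular cells, had 21.6, 43.4 and 49.7 in Gata4 siRNA cells against 176.9, 112.9 and 170.7 in NT siRNA cells. It fell by 1.66 ± 0.24 and, on its second probe, fell by 1.15 ± 0.24. On that probe 1 of the 3 Gata4 siRNA arrays was below the noise floor. The size on the brighter probe depends on how background is handled. It was -0.75 with 130 added to each value and -2.06 with values floored at 1. Klf4 kept its call in all 6 fits that leave out an array. Klf2, a related factor best known from endothelium, fell by 0.90 ± 0.17 and kept its call in 4 of those fits. The homeobox repressor Msx1 fell by 0.69 ± 0.14 and kept its call in 2. Tead4, a TEAD factor of the family that binds the MCAT element, rose by 0.68 ± 0.14 and kept its call in 1. With 130 added to each value, Klf2 was at -0.50, Msx1 at -0.38 and Tead4 at 0.34. The 3 that did not pass, named after their values were seen, were Elk3 (0.68 ± 0.19), Klf5 (0.40 ± 0.12) and Yap1 (-0.58 ± 0.16). SRF, myocardin, the related cofactors Mrtfa and Mrtfb, and Gata6 are not among the named genes.

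Of 32 other targets of SRF and its cofactors or of YAP, 7 were named, and 1 rose, 2 fell and 4 did not pass (median 0.33). Among all named genes, 25.9% were called higher and 29.5% lower. Egr3, an immediate early gene, had 237.5, 275.3 and 229.7 in Gata4 siRNA cells against 97, 86.5 and 89.9 in NT siRNA cells and rose by 1.30 ± 0.12. The matricellular genes Ccn2 and Ccn1 fell by 0.94 ± 0.11 and fell by 0.48 ± 0.12. On dimmer probes that also passed, Ccn2 was at -1.08 ± 0.11 and Ccn1 at -0.99 ± 0.18. Another Ccn1 probe, at -0.43 ± 0.13, did not pass. On the probes that stand for the genes, Egr3 and Ccn2 kept their calls in all 6 fits that leave out an array and Ccn1 in 0. The focal adhesion genes Zyx and Vcl, chosen after their values were seen, were at 0.51 ± 0.13 and 0.33 ± 0.12 and did not pass.

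In TGF-beta, BMP and SMAD signalling, a known inducer of Acta2 and Tagln in fibroblasts, 8 of 40 genes were named, and 0 rose, 5 fell and 3 did not pass (median -0.52), where 29.5% of all named genes and 4.71% of all probes tested were called lower. The inhibitory Smad6 had 19.6, 20.7 and 17 in Gata4 siRNA cells, the last of these just below the noise floor, against 75.6, 39.8 and 49.4 in NT siRNA cells, and fell by 0.97 ± 0.18. This size depends on how background is handled. It was -0.31 with 130 added to each value and -1.48 with values floored at 1. The secreted Fstl1 and Fstl3, the second of which binds activin, fell by 0.72 ± 0.14 and fell by 0.57 ± 0.15, and Inhbb, a subunit shared by inhibin B and activin B, fell by 0.53 ± 0.12. The call of Smad6 was kept in 3 of the 6 fits that leave out an array, those of Fstl1 and Fstl3 in 1 and that of Inhbb in 0. The remaining genes of the list were named after their values were seen. Tgfb3 fell by 0.51 ± 0.12, a call kept in 0 of those fits. The 3 that did not pass were Ltbp1 (-0.36 ± 0.11), Tgfbr2 (-0.35 ± 0.11) and Smad2 (-0.33 ± 0.11).

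The fibroblast and myofibroblast list, which marks cells that also express Acta2, had 12 of 23 genes named, of which 2 rose, 6 fell and 4 did not pass (median -0.59), where 25.9% of all named genes were called higher and 29.5% lower. The fibrillar collagen Col1a1 had 1657.5, 1522 and 1940.4 in Gata4 siRNA cells against 4004.6, 3722.1 and 4408.2 in NT siRNA cells and fell by 1.24 ± 0.14. Col1a2 fell by 1.06 ± 0.13, Col3a1 fell by 1.05 ± 0.13 and the microfibril protein Fbn1 fell by 1.04 ± 0.11. All 4 kept their calls in every one of the 6 fits that leave out an array. The 2 that rose, named after their values were seen, were Pdpn, the membrane glycoprotein podoplanin, and Tnc, the matrix protein tenascin C. Pdpn had 2399.4, 2364.1 and 2366.2 in Gata4 siRNA cells against 1528.3, 1268.5 and 826.6 in NT siRNA cells and rose by 1.01 ± 0.21. Tnc rose by 0.66 ± 0.15 and, on a second probe, by 0.66 ± 0.15. Pdpn kept its call in 2 of those fits and Tnc in 1. The summed intensity of the 12 genes was 37802.3 to 40011.0 on Gata4 siRNA arrays and 43240.3 to 45938.0 on NT siRNA arrays. Dcn, the brightest of the 12 and named after its values were seen, ran against this sum. Its means were 14415 in Gata4 siRNA cells and 11484 in NT siRNA cells. It was at 0.33 ± 0.11 and a second probe at 0.50 ± 0.14, neither of which passed. Of the 12 genes 3 had a positive difference and 9 a negative one.

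Markers of other cell types could be checked only in part. Of 31 Sertoli markers 2 were named, Sox9 and Inhbb. Sox9, a transcription factor of testis determination, rose by 0.59 ± 0.11, a call kept in 1 of the 6 fits that leave out an array. A second Sox9 probe also passed, at 0.63 ± 0.15. Inhbb fell, as given above. The summed intensity of the 2 genes, on their brightest probes, was 2741.2 to 2904.4 on Gata4 siRNA arrays and 2808.8 to 3155.2 on NT siRNA arrays. Of 10 macrophage and leukocyte markers 1 was named, Cd14, at 0.39 ± 0.12, which did not pass, with 716.0 to 781.9 in Gata4 siRNA cells and 520.2 to 619.0 in NT siRNA cells. Of the Leydig (9 genes), germ cell (12) and endothelial (9) lists 0 were named, so their levels were not analysed here. The part of these cell types in the values of the contractile genes was not tested.

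**Figure D5:**
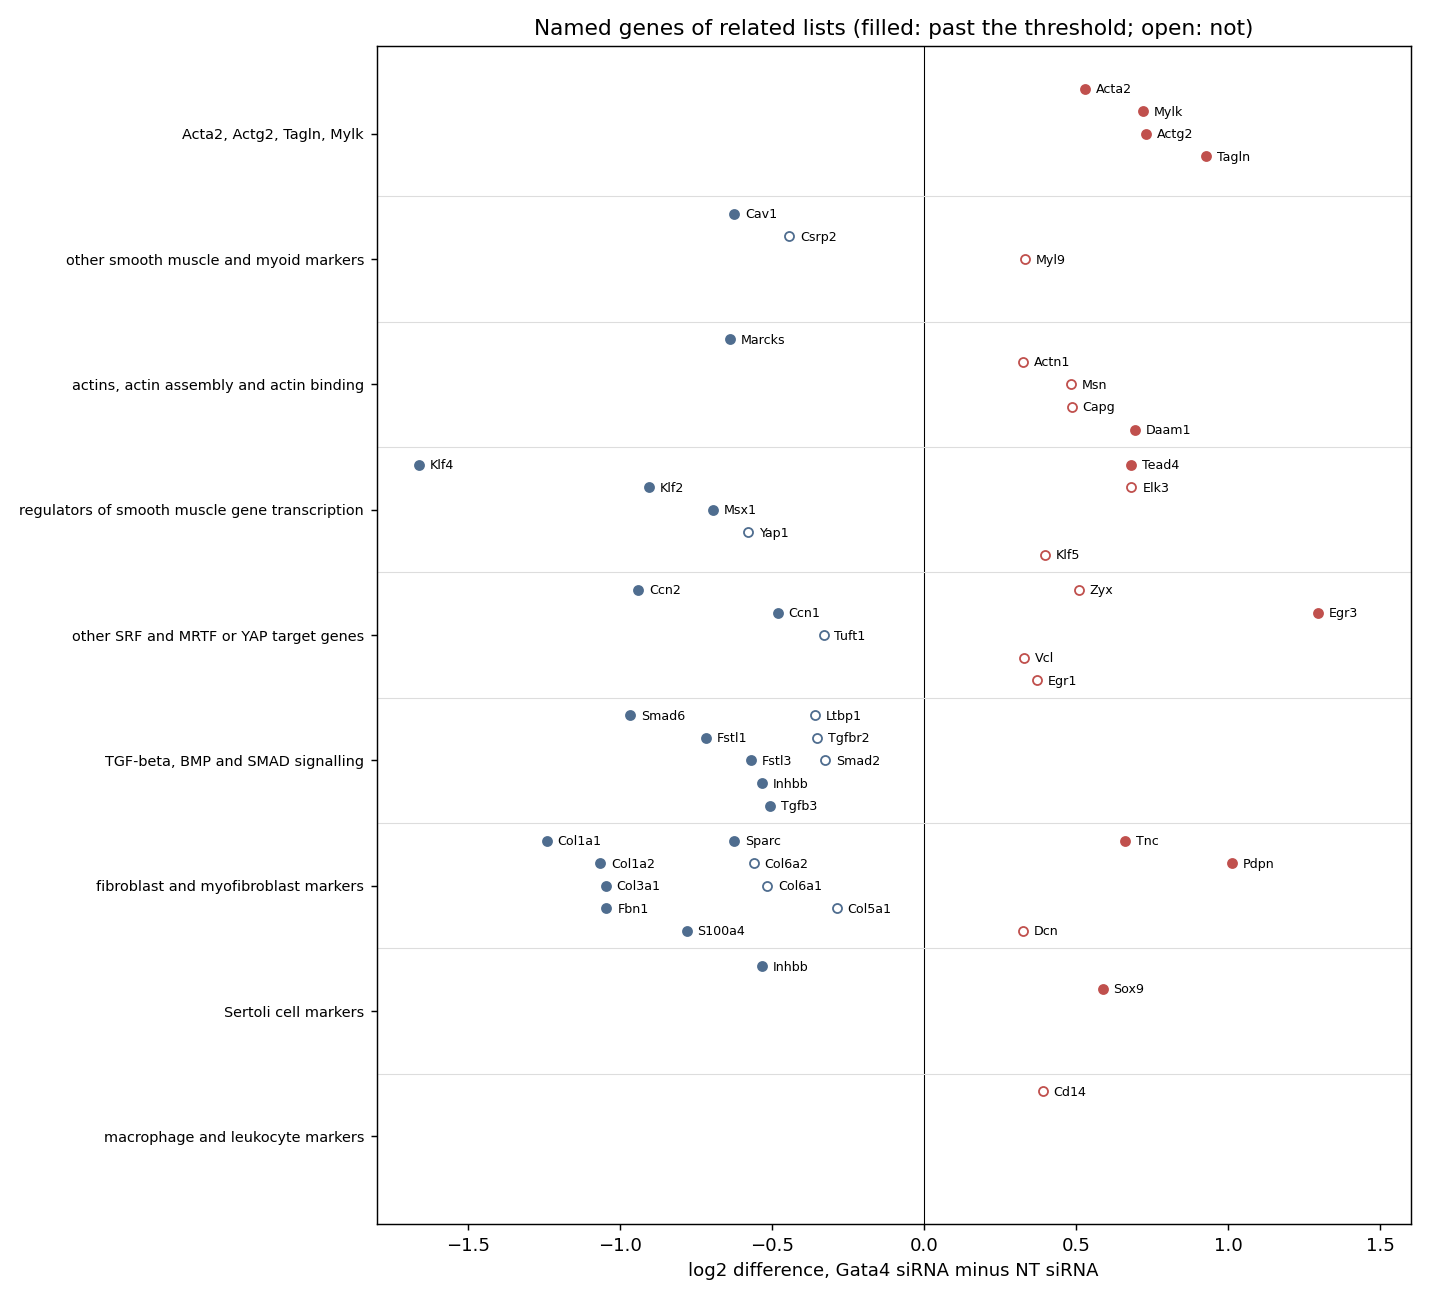
Log2 difference, Gata4 siRNA minus NT siRNA, of the 4 contractile genes (top) and of each named gene of the related lists, with red right of 0, blue left of 0, filled symbols past the limma threshold and open symbols not. The contractile genes lie between 0.53 and 0.93, while all 8 named genes of the TGF-beta list lie below 0.

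Of the 6 named genes whose profile lay nearest to the mean of the 4 contractile genes, of 1843 compared, 5 were above the noise floor on all arrays: Atxn3, Cerk, Asb13, Pon2 and Fam13b. Their root-mean-square distances over the 6 arrays ran from 0.03 for Atxn3 to 0.05 for Fam13b, on the log2 scale relative to the NT siRNA mean. Such a distance counts the difference between the groups too, so a small one is not likeness within groups alone. The log2 differences of these 5 ran from 0.69 for Cerk to 0.79 for Pon2. Atxn3, the deubiquitinase ataxin-3, had 170.9, 152.2 and 154.7 in Gata4 siRNA cells against 92.1, 96.9 and 83.9 in NT siRNA cells, a log2 difference of 0.71 ± 0.12. Cerk, ceramide kinase, had 923.2, 887.8 and 854.3 in Gata4 siRNA cells against 556.4, 576.3 and 505.5 in NT siRNA cells, a log2 difference of 0.69 ± 0.11. The other, Smarcd1, a subunit of a chromatin remodelling complex, had 20.2, 19.9 and 19.7 in Gata4 siRNA cells but was above the noise floor on 0 NT siRNA arrays, and was at least 1.07-fold higher. Its place among the 6 is not a measured likeness, since its log2 difference, 0.70, became 4.32 with values floored at 1 and 1.58 with 16 added without normexp. Likeness of this kind was found among genes that the authors had called, and only 1 of the 6 remained among the nearest 6 with 130 added to each intensity, 2 without NT siRNA array 2 and 3 without Gata4 siRNA array 3.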

How the data were processed

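Total RNA of 6 samples was measured on 1-colour Illumina arrays, with groups and replicate numbers read from the titles. The design text instead counts samples 3 to 6 as controls, which does not match 3 samples per group, and this was not resolved. The deposited intensity values are on a linear scale, and 37.1% of them lie below 0, so the deposited values are background-subtracted. The submitters' processing notes name GenomeStudio, with no settings given in the sources used here. Another 18 columns could not be tied to a sample by name and stayed out of every step. Genes were named from the authors' deposited table of 2415 probes (its other columns, identifiers apart, were not read), updated through Entrez numbers with a RefSeq table.

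Intensities were adjusted with normexp (background mean 0, SD 9.40 from the values below 0), raised by 16 and put on the log2 scale. Probes above 17.1, the 95th percentile of the sizes of values below 0, on at least 3 of 6 arrays were fitted by limma 3.58.1 (R 4.3.3). Two-sided p-values were adjusted over them by Benjamini-Hochberg, with a threshold of 0.05. The script was tested on simulated data. The planned settings were taken over from an earlier account of these arrays. The brightest probe stands for a gene. The genes and lists were chosen with earlier results of these data known. Text names up to 4 called members of each list by size, or up to 2 by brightness where none passed, and the 6 nearest profiles other than clone names. With 3 arrays per group, their number limits the precision. Alternatives covered dim values, filter, variance model, array weights, replicate block, left-out arrays and probe rule. Figures were drawn with matplotlib 3.10.9. One planned gene list is not reported here.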

Additional observations from a re-analysis of the deposited data

How the results depend on the processing

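All 4 contractile genes kept a positive difference in every setting run. As their groups did not overlap, these settings could hardly turn the sign, so this is no check of the direction. Acta2, Actg2 and Mylk moved by less than the spread between arrays. Tagln moved to 0.49 with 130 added to each value. Differences of other dim genes also shrank in that setting, among them Klf4 to -0.75, Egr3 to 0.77 and Daam1 to 0.42. The number of probes called, 1558, became 734 with values floored at 1, 2518 with 130 added, 2377 with a mean-variance trend and 3079 with array weights, and leaving out 1 array gave 257 to 1602. The number of contractile genes called, 4, became 2 with values floored at 1, 3 without a filter on dim probes (Mylk lost, limma adjusted p 0.0599) and 0 to 3 with 1 array left out (limma adjusted p of the 4 genes 0.0582 to 0.114 in the fit without Gata4 siRNA array 2, and 4 at an unadjusted p under 0.05). With the replicate number as a block, 736 probes and 2 of the contractile genes were called, Actg2 and Tagln. As a mean over its 4 probes, Acta2 did not pass (limma adjusted p 0.0502). Deviations of same-numbered arrays correlated at -0.06, -0.09 and -0.01 over 17740 probes, and each Gata4 siRNA array correlated best with an NT siRNA array of another number. This check cannot show whether same-numbered samples shared an origin. Of 30 other named genes called, the nearest profiles included, 8 kept their call in each of the 6 fits that leave out an array. All 30 kept their sign, which leaving out 1 array could not turn, since their groups did not overlap. The share of all called probes that keep their call in each fit was not worked out, so the count of 8 is no result about these genes. With 130 added, 19 further named genes of the lists passed, 11 higher (Myl9, Zyx and Vcl among them) and 8 lower (Csrp2 and Yap1 among them). In that setting 2518 of the 17740 probes tested were called, and 7.13% were called higher, against 4.07% in the setting used. The share of all named genes called there was not worked out, so these further calls are no result about the lists. The setting that adds 16 without normexp was chosen after seeing the data and called 4 contractile genes.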
